A study of Mus musculus with 12 samples.

Results

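Coding regions of at least 1000 and fewer than 2000 codons were examined in RNA-seq and ribosome profiling of mouse small-intestine organoids with wild-type, heterozygous or homozygous mutant Eif4g2. A region was taken when its listed length lay in that range and its footprint counts summed to at least 100 over the 6 ribosome profiling libraries. Rows with the same counts in all 12 libraries were kept once, which left 2471 long regions from 2820 rows, out of 45862 distinct regions in the series. The comparison set was the 41635 shorter regions, under 1000 codons long, of which 26463 also reached 100 footprint counts, and 762 regions had 2000 codons or more. The meaning of the length column is not stated in the tables, and it is read here as codons of the counted coding region.

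The 3 genotypes were Eif4g2+/+ (WT), Eif4g2+/- (Het) and Eif4g2-/- (KO). Each had 2 label numbers, called samples 1 and 2 here in their order (WT 1 and WT 2, and so on), and each number had 1 RNA-seq and 1 ribosome profiling library. The labels do not say that both libraries of a number came from the same culture. All samples, WT included, were grown for 3 days and received 0.5 µM 4-OHT (4-hydroxytamoxifen) for 24 hours, so no group without the drug is compared here. The labels name neither a recombinase nor the cells in which Eif4g2 was changed, and they do not say which animals the numbers stand for. Because nothing states that the numbers are separate animals, p-values measure the spread between these samples, which may be technical.

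Small-intestine organoids are cultures of intestinal epithelium grown in a gel matrix, in which stem cells renew themselves and give rise to the differentiated cell types of the gut lining. Eif4g2 (also called DAP5) is a relative of the scaffold protein eIF4G that lacks the site for the cap-binding protein, and it takes part in translation initiation on a subset of mRNAs. Ribosome profiling sequences mRNA fragments that ribosomes shield from nuclease (footprints). A footprint count depends on how much of an mRNA is present and on how many ribosomes each copy carries, and the second of these, footprints relative to RNA, is called ribosome density here. Long reading frames code for many large scaffold, motor, adhesion, transport and chromatin proteins, and the series title places its interest in histone modifiers. The deposited tables list Ensembl transcript IDs without gene symbols, so regions are called by ID. The level of Eif4g2 and of cell type markers was not analysed here, so neither the genotype nor the tissue label could be set against expression.

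RNA-seq was shallow and its depth followed genotype. Library totals over all regions were 332907 to 385387 counts in WT, 479722 to 672211 in Het and 778942 to 937494 in KO, without overlap, so RNA depth and genotype cannot be told apart. Ribosome profiling totals were 4825423 to 22531782 counts, and the KO libraries were again the deepest. Among long regions the RNA counts summed over 6 libraries ran from 0 to 7811 with a median of 170, and footprint counts ran from 100 to 487103 with a median of 1587. A long region had a median of 15 to 43 RNA counts and 101 to 443 footprint counts per library. Of the 2471, 1450 had at least 10 counts in every RNA library and 2390 in every footprint library.

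Long regions varied in length around a median of 1244 codons. Many were isoforms of the same transcript family: the 2471 fell into 1400 groups of rows that shared reads, 805 of them with 1 long region and the largest with 17, and 242 groups also held a shorter region. Counts of regions are therefore not counts of genes. At the threshold of the rule, the 30 long regions with 100 to fewer than 110 footprint counts had a median of 16.5 RNA counts, and the 17 just below it, with 90 to fewer than 100, had 41. At the lower length limit, the 54 regions within 10 codons above it had a median of 1297.5 footprint counts and the 57 within 10 codons below it had 1122. Their median RNA counts were 98.5 above the limit and 133 below it.

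Long regions took a larger part of the RNA than of the footprints. They held 20.2% to 21.2% of the counts in the 6 RNA libraries and 11.5% to 12.4% in the 6 ribosome profiling libraries. By genotype, the footprint share was 11.96% and 11.52% in WT, 11.95% and 11.58% in Het, and 12.38% in either KO library. The KO libraries were thus the highest, but this rested on a group of 3 overlapping isoforms, picked out after their values were seen. The first of them, ENSMUST00000084509.7 of 1937 codons, had 4573 and 4709 footprint counts per 1000000 counts of the library (CPM) for WT, 6331 and 4752 for Het, and 7269 and 7231 for KO, on RNA levels of only 78.1 to 209 CPM. Its footprints rose in KO against WT by 0.64 on the log2 scale (edgeR adjusted p = 1.13e-04), its RNA rose by 1.04 (adjusted p = 2.24e-04), and its density was not called (log2 change -0.43, adjusted p = 0.441). Those 3 isoforms made up 10.7% to 16.4% of all footprints on long regions but 0.11% to 0.288% of their RNA. Their counts were of like size, so a shared read may be counted up to 3 times in this sum. ENSMUST00000084509.7 alone made up 3.82% to 5.87% of the footprints on long regions. Without the 3 isoforms the footprint share was 10.7% and 10.2% for WT, 10.2% and 10.3% for Het, and 10.3% and 10.4% for KO, and the genotypes overlapped.

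Per unit of length, long regions carried more RNA and fewer footprints than shorter ones. The median RNA level was 34.2 to 38.5 CPM per 1000 codons for long regions and 24.3 to 29.2 for shorter regions with at least 100 footprint counts, a ratio of 1.27 to 1.45 over the 6 libraries. The median footprint level was 14.5 to 16.2 CPM per 1000 codons against 32.9 to 33.9, a ratio of 0.438 to 0.486. Each of the 6 organoid samples had the same order in both assays. Neither set was required to have an RNA count here, and a floor on footprint counts passes short regions only at a higher level per codon.

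To compare regions of like abundance, long regions were divided into 5 equal bins by RNA level and shorter regions were weighted to the same bins. Among 2167 long and 9417 shorter regions that passed the low-count filter in both assays, the median footprint level relative to RNA, as log2 of the CPM ratio with 0.5 CPM added, was -1.37 and -1.42 for long regions for WT, -1.45 and -1.48 for Het, and -1.39 and -1.47 for KO. Shorter regions of like RNA level stood at -1.14 and -1.14 for WT, -1.27 and -1.24 for Het, and -1.21 and -1.25 for KO. Shorter regions thus carried 1.13 to 1.22 times as many footprints per RNA in all 6 samples, and that gap was present in WT as in KO. The WT gaps were -0.23 and -0.28, the Het gaps -0.18 and -0.24, and the KO gaps -0.18 and -0.22 on the log2 scale. The gap was smaller in either KO sample than in either WT sample, and Het overlapped both genotypes. Among long regions the spread was far wider than this gap, with an interquartile range of -2.45 to -0.15 in WT 1.

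**Figure D1:**
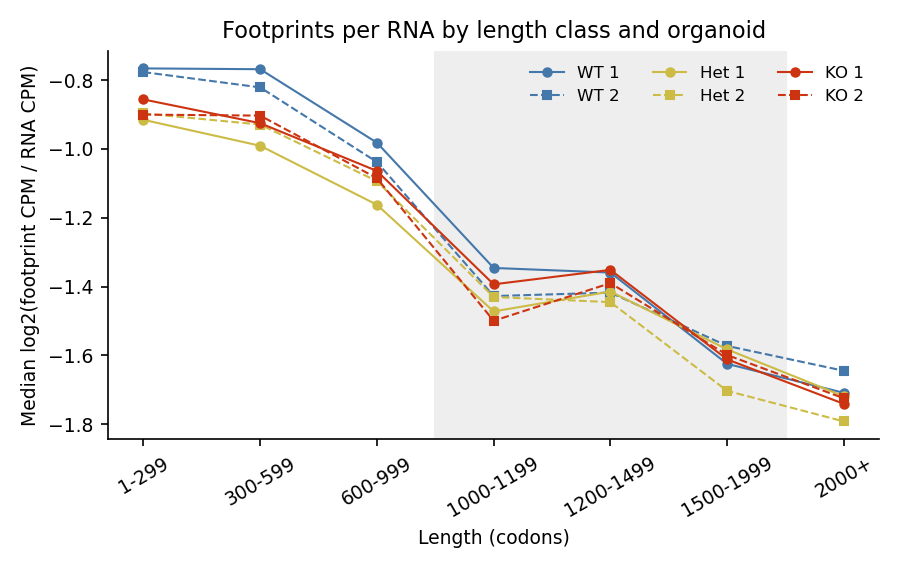
Median log2 ratio of footprint CPM to RNA CPM (0.5 CPM added to each, vertical axis) for 7 length classes in codons (horizontal axis), among regions that passed the low-count filter in both assays and without matching on abundance. Each line is 1 organoid sample, and the grey band marks the long regions, whose medians lie below those of every shorter class in all 6 samples.

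Footprints per RNA tended to be lower in longer classes on either side of 1000 codons. In all 6 samples the largest step between medians of neighbouring classes was between the classes that meet at 1000 codons. These classes are wide and were not matched on abundance, so they do not place a step at that length. Within 10 codons of the limit, median footprint counts were 1122 below and 1297.5 above it, and median RNA counts were 133 and 98.5. The class starting at 1200 codons went the other way in 4 samples, where it stood above the class before it. In WT 1 the median log2 ratio was -0.77 below 300 codons, -0.77 from 300 to under 600 and -0.98 from 600 to under 1000, then -1.35 from 1000 to under 1200, -1.36 from 1200 to under 1500 and -1.62 from 1500 to under 2000, and -1.71 for 2000 codons or more. KO 1 gave -0.86, -0.93, -1.06, -1.39, -1.35, -1.61 and -1.74 for the same classes. Within the 2453 long regions tested for density, the correlation of the mean log2 ratio with log2 length was weak (Pearson r = -0.07, Spearman rho = -0.08, across regions that share reads and libraries).

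The first genotype comparison asked whether RNA of long regions differed between genotypes. In KO against WT, 447 of 2167 long regions tested were called, 192 higher and 255 lower, at an adjusted p under 0.05 in edgeR's quasi-likelihood test. That is 20.6% of long regions, beside 21.6% of shorter regions of like RNA level and 17.5% of all regions tested. Matched on RNA per codon in place of total RNA, 12.6% of shorter regions were called. The 447 belonged to 246 of the 1207 transcript groups tested. Called regions had a median absolute log2 change of 0.90, and 184 changed at least 2-fold, 94 higher and 90 lower, a count not computed for shorter regions. The RNA was from whole organoids, so fewer cells of a type and less RNA per cell cannot be told apart. Without a count filter the direction of the calls turned, to 204 higher and 95 lower, or 12.1% of long, 15.6% of shorter and 4.17% of all regions. DESeq2 called 139, or 6.41% of long, 8.38% of shorter and 4.95% of all regions. Leaving out either WT sample lowered the share called among long, shorter and all regions alike.

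The median RNA change of long regions was small. It was -0.05 in KO against WT on the log2 scale, against 0.03 for shorter regions of like RNA level, a difference of -0.09. Per library, the level of long regions relative to shorter ones was 0.06 and 0.01 for WT, -0.04 and 0.01 for Het, and -0.03 and -0.05 for KO, with a pooled SD of 0.03 within genotypes. The WT libraries stood above the KO libraries, and the Het libraries spanned the distance between them. The gap came from well-expressed regions: in the bin with most RNA the medians were -0.14 for long and 0.05 for shorter regions, while in the second lowest bin they were 0.08 and 0.01.

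Few long regions were called in RNA between Het and WT. Only 55 of the 2167 long regions were called, 14 higher and 41 lower, or 2.54% against 3.71% of shorter regions of like RNA level (1.30% when matched per codon) and 2.38% of all regions. DESeq2 called 8, all lower, or 0.369% of long, 0.972% of shorter and 0.518% of all regions. With no count filter edgeR called 13 higher and 11 lower, or 0.972%, 2.03% and 0.384% in the same order. With at least 10 counts in every library it called 33 higher and 38 lower, or 4.90%, 7.25% and 5.59%. Without WT 1, WT 2 or Het 1 a smaller share was called among long, shorter and all regions alike. Without WT 1 lower calls no longer outnumbered higher ones. In KO against Het, 168 were called, 97 higher and 71 lower, or 7.75% against 10.6% of shorter regions (4.39% when matched per codon) and 7.14% of all regions. DESeq2 called 29 higher and 13 lower there, or 1.94% of long, 2.74% of shorter and 1.40% of all regions. Without Het 1, Het 2 or KO 1 the share called by edgeR fell among long, shorter and all regions alike. The median changes were -0.07 in Het against WT and -0.01 in KO against Het. Long minus shorter, the differences were -0.07 and -0.03, beside -0.09 in KO against WT. Both differences from WT used the same WT libraries, and the pooled SD within genotypes was 0.03. Without WT 1 they were -0.029 in Het against WT and -0.065 in KO against WT, so their relative size was not settled.

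Among regions that rose in RNA, ENSMUST00000071213.4 of 1923 codons had the largest change by the naming rule. Its RNA level was 301 and 210 CPM for WT, 434 and 369 for Het, and 1641 and 1823 for KO, so the KO libraries lay far above the other four. The RNA rise in KO against WT was 2.70 ± 0.15 (SE) on the log2 scale (edgeR adjusted p = 2.03e-23). Footprints of ENSMUST00000071213.4 stayed in a narrow band, at 239 and 227 CPM for WT, 234 and 211 for Het, and 211 and 208 for KO (log2 change -0.16 ± 0.07, adjusted p = 0.101). Footprints per RNA were 0.796 and 1.08 for WT, 0.538 and 0.572 for Het, and 0.129 and 0.114 for KO, with no overlap between genotypes.

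A second region that rose in RNA, ENSMUST00000234610.2 of 1080 codons, had 112 and 81.1 CPM for WT, 138 and 119 for Het, and 399 and 434 for KO. Its RNA rose by 2.05 ± 0.19 on the log2 scale (edgeR adjusted p = 3.75e-13). Its footprints were 13.5 and 10.6 CPM for WT, 14.3 and 14.4 for Het, and 8.70 and 8.19 for KO, a fall by 0.58 ± 0.13 (adjusted p = 0.00316). RNA and footprints of ENSMUST00000234610.2 thus moved in opposite directions in KO.

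On the falling side, ENSMUST00000171337.10 of 1205 codons had RNA levels of 98.6 and 117 CPM for WT, 55.0 and 87.6 for Het, and 20.5 and 23.5 for KO. RNA changed by -2.32 ± 0.29 on the log2 scale (edgeR adjusted p = 1.52e-08). Footprints fell with it, from 33.0 and 34.0 CPM in WT through 25.4 and 22.3 in Het to 11.1 and 13.6 in KO (log2 change -1.45 ± 0.11, adjusted p = 5.14e-08). Het lay between WT and KO in both assays, and its footprints were called lower than WT (log2 change -0.49 ± 0.11, adjusted p = 0.0421). ENSMUST00000090601.12 of 1639 codons had RNA levels of 62.3 and 138 CPM for WT, 80.3 and 79.2 for Het, and 20.5 and 30.9 for KO (log2 change -1.95 ± 0.30, adjusted p = 1.89e-06), and the change was -1.30 without WT 2 (adjusted p = 0.0234). Its footprints were 12.9 and 15.1 CPM for WT, 13.9 and 11.3 for Het, and 4.84 and 5.86 for KO (log2 change -1.37 ± 0.16, adjusted p = 5.49e-06), so Het overlapped WT and KO stood apart. Neither of these falling regions was called in density (adjusted p = 0.176 and 0.53).

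The second comparison concerned footprints. In KO against WT, 938 of the 2471 long regions were called, 367 higher and 571 lower, in 538 of 1400 transcript groups. That is 38.0% of long regions, beside 31.7% of shorter regions of like footprint level and 25.6% of all regions tested. Matched on total footprints, the excess lay on the falling side: 14.9% of long regions rose and 23.1% fell, against 15.8% and 15.9% of the shorter regions. That comparison depended on the matching: with shorter regions of like level per codon, which have fewer counts each, 8.37% of them rose and 12.9% fell, so long regions exceeded them in both directions. Among long regions with at least 1000 footprint counts, 39.2% were called beside 37.8% of shorter ones. Falling regions made up 60.9% of the calls here, 70.9% with DESeq2 (134 higher, 326 lower) and 57.2% with no count filter. DESeq2 called 18.6% of long, 14.5% of shorter and 10.9% of all regions. Changes were mostly modest, with a median absolute log2 change of 0.48 among called regions, and 146 changed at least 2-fold, 27 higher and 119 lower. The 2-fold counts were not computed for shorter regions, so their direction cannot be read as particular to long ones. Leaving out KO 1 or WT 1 lowered the share called among long, shorter and all regions alike.

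Shorter regions differed from long ones most where footprints were few. In the lowest of the 5 bins of footprint level 31.6% of long and 15.9% of shorter regions were called, and the shorter regions of that bin had a median length of 200 codons. In the second highest bin the order turned, with 32.2% of long and 39.1% of shorter regions called. The median standard error of the log2 change was 0.11 for long regions and 0.13 for shorter ones, so long regions were measured a little more precisely. Its part in the count of calls was not tested.

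Few long regions were called in footprints between Het and WT. Long minus shorter, the difference of median log2 changes was -0.04 in Het against WT and -0.05 in KO against WT, both against the same WT libraries. The Het difference was -0.064 without Het 1 and -0.025 without Het 2. In Het against WT, 17 long regions were called, 4 higher and 13 lower, or 0.688% against 1.56% of shorter regions and 0.963% of all regions, while 387 had an unadjusted p under 0.05. DESeq2 called 1, lower, or 0.0405% of long, 0.777% of shorter and 0.376% of all regions. Leaving out Het 2 or WT 1 turned the direction, to more higher than lower calls. With Het 2, WT 1 or either KO library left out, a smaller share was called among long regions than among shorter or all regions. In KO against Het, 870 were called, 422 higher and 448 lower, or 35.2% against 29.4% of shorter regions and 23.7% of all regions. Matched per codon, 19.9% of shorter regions were called, and for long regions with at least 1000 footprint counts the shares were 34.8% of long and 34.9% of shorter regions. The calls in KO against Het fell without Het 2, KO 1 or KO 2, and so did the shares of shorter and all regions called. KO against WT and KO against Het share the KO libraries, and their values are not independent.

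**Figure D2:**
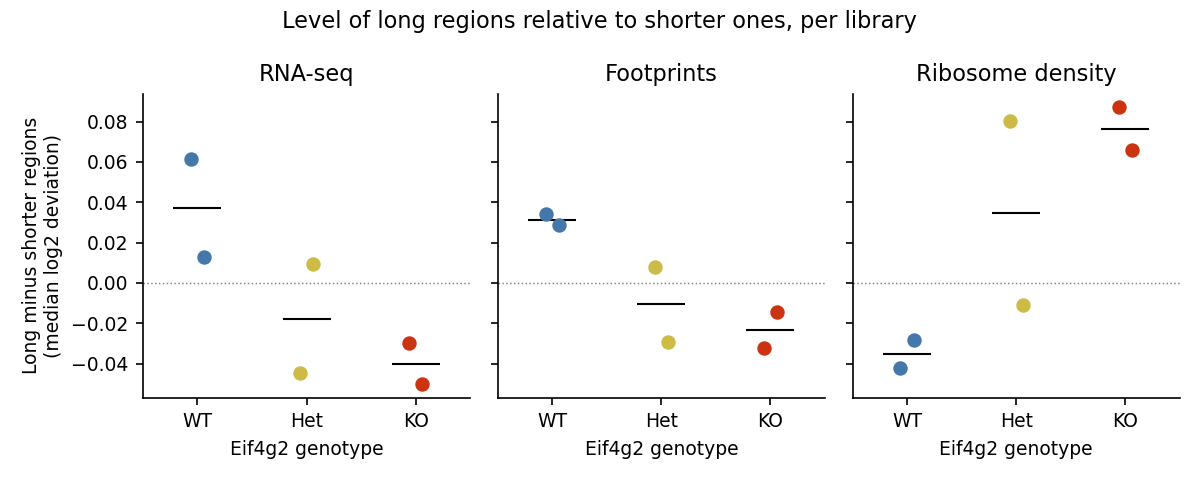
Level of long regions relative to shorter regions of like abundance in each library, as the difference of medians of the log2 deviation from the mean over 6 libraries (vertical axis), for RNA-seq, footprints and footprints relative to RNA, by genotype (horizontal axis). Each point is 1 library or organoid sample and each bar the mean of 2. WT lies above KO in RNA and in footprints and below KO in density, and the Het points all lie within the range spanned by WT and KO.

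The median footprint change of long regions was -0.03 in KO against WT, against 0.02 for shorter regions of like footprint level. Per library, long regions stood 0.03 above shorter ones in either WT library, at 0.01 and -0.03 in Het, and at -0.03 and -0.01 in KO, with a pooled SD of 0.02. WT and KO did not overlap, and Het 2 lay within the KO range. When regions were matched on footprints per codon in place of total footprints, the KO against WT difference went from -0.05 to -0.01.

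Footprints rose most by the naming rule in ENSMUST00000121175.8 of 1591 codons, from 1.18 and 3.11 CPM in WT and 1.87 and 2.18 in Het to 7.15 and 7.43 in KO. The rise in KO against WT was 2.08 ± 0.27 on the log2 scale (edgeR adjusted p = 1.95e-05), and 1.21 without WT 1 (adjusted p = 0.0122). RNA of ENSMUST00000121175.8 was 0 to 7 counts per library, with 0 in KO 1, and was too low to enter the RNA test. ENSMUST00000167239.8 of 1476 codons had 0.962 and 0.414 CPM for WT, 0.520 and 0.677 for Het, and 2.22 and 2.83 for KO, on 13 and 2 footprint counts in WT and 50 and 45 in KO. Its rise of 1.61 ± 0.38 was called by edgeR (adjusted p = 0.00437) and missed the threshold with DESeq2 (log2 change 1.72, adjusted p = 0.0764). Without WT 1 it was 2.55 (edgeR adjusted p = 0.0239).

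The deepest fall in footprints by the naming rule was that of ENSMUST00000160694.2 of 1811 codons. Its footprint level was 9.10 and 5.60 CPM for WT, 2.71 and 1.66 for Het, and 0.533 and 0.882 for KO, in 3 steps without overlap. The KO against WT change was -3.54 ± 0.31 on the log2 scale (edgeR adjusted p = 1.94e-07), and the Het against WT change was -1.91 ± 0.28 (adjusted p = 0.00144). Its RNA fell less, from 57.1 CPM in either WT library through 28.3 and 41.7 in Het to 18.0 and 16.0 in KO (log2 change -1.79 ± 0.35, adjusted p = 9.76e-05). The density of ENSMUST00000160694.2 was called lower in KO, at -1.77 ± 0.52 (adjusted p = 0.043), on only 14 and 15 RNA counts in KO. ENSMUST00000228014.2 of 1210 codons had 3.40 and 5.18 footprint CPM for WT, 3.54 and 0.376 for Het, and 0.710 and 0.189 for KO. Its change of -2.99 ± 0.62 was called by edgeR (adjusted p = 0.00174) and not by DESeq2 (log2 change -3.25, adjusted p = 0.0955), and its Het samples lay apart from each other.

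**Figure D3:**
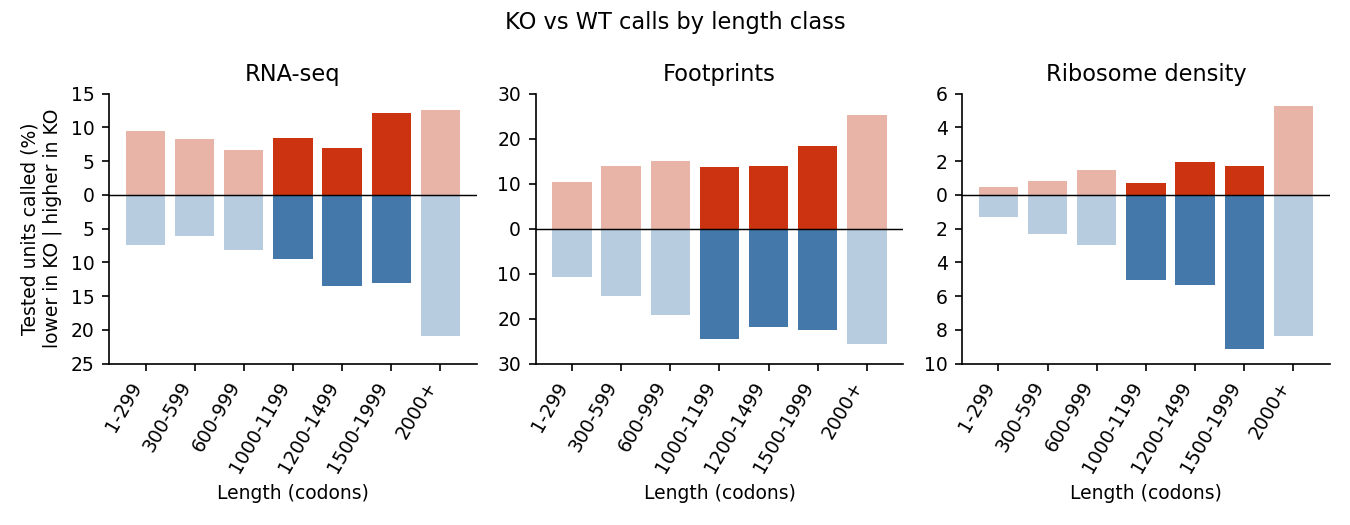
Percent of tested regions with at least 100 footprint counts that were called higher (above 0) or lower (below 0) in KO against WT, by length class in codons, for RNA-seq, footprints and ribosome density. Darker bars are the 3 classes of long regions. The share called in footprints goes from 21.1% in the shortest class to 50.9% at 2000 codons or more.

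The share of calls in density rose with length throughout, and in footprints and RNA it was highest in the longest class, with steps down between some neighbouring classes. For footprints in KO against WT it was 21.1%, 28.7% and 34.3% in the 3 classes below 1000 codons, 38.2%, 35.7% and 40.7% in the classes starting at 1000, 1200 and 1500 codons, and 50.9% at 2000 or more. For RNA the 3 long classes had 18.0%, 20.4% and 25.2%, against 16.8%, 14.3% and 14.7% below 1000 codons and 33.4% above. For density they had 5.69%, 7.26% and 10.8%, against 1.77%, 3.11% and 4.46% below and 13.6% above. These classes were not matched on abundance. Among long regions the signed log2 change was only weakly related to length: its Pearson r with log2 length was 0.04 for RNA, 0.07 for footprints and 0.02 for density in KO against WT, over 2167, 2471 and 2453 regions.

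RNA and footprint changes of long regions were related but far from equal. Of the 2167 regions tested in both assays, 447 were called in RNA and 832 in footprints in KO against WT. The calls shared 217 regions, which is 48.5% of the RNA calls and 26.1% of the footprint calls. Of the shared regions 55 rose and 126 fell in both, and 36 moved in opposite directions. Log2 changes spread more in RNA (SD 0.64) than in footprints (SD 0.45), and they correlated across regions with Pearson r = 0.38 and Spearman rho = 0.37, beside 0.36 and 0.30 for 9447 shorter regions. Regions share libraries and reads, and RNA counts were low, so these are descriptions. In KO against Het the calls shared 93 regions, 73 with the same sign, and in Het against WT they shared 0.

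**Figure D4:**
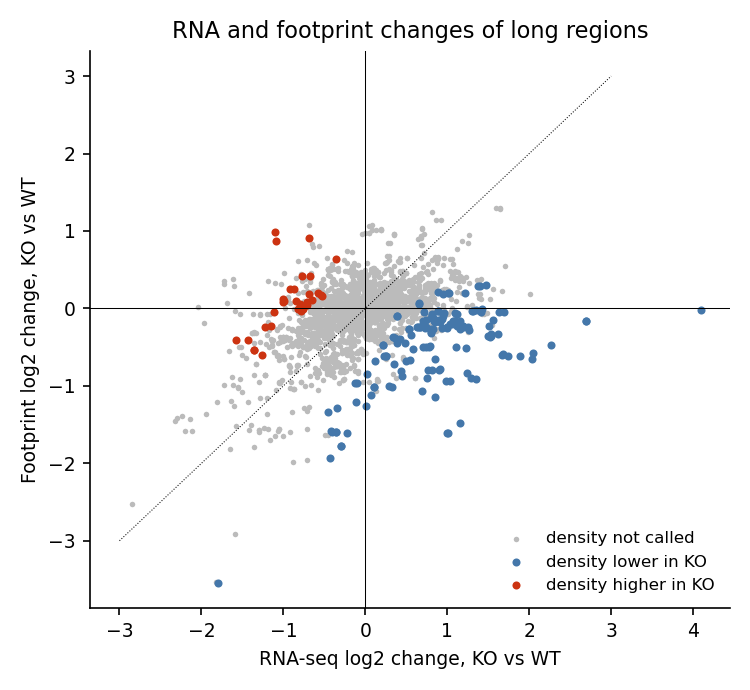
Log2 change in footprints (vertical axis) against log2 change in RNA (horizontal axis), KO against WT, for the 2167 long regions tested in both assays. Each point is 1 region, the dotted line marks equal changes, and coloured points are regions called in ribosome density. Most regions with lower density lie to the right of 0, with higher RNA and footprints near or below 0.

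The third comparison was ribosome density, tested as the genotype by assay interaction over all 12 libraries. In KO against WT, 183 of 2453 long regions were called, 33 higher and 150 lower, in 107 of 1391 transcript groups. That is 7.46% of long regions, beside 6.54% of shorter regions of like abundance and 2.94% of all regions tested. Over all regions the median density change was -0.12 on the log2 scale, and relative to that shift 73 long regions were higher and 110 lower. DESeq2 called 81 higher and 143 lower, or 9.13% of long, 7.76% of shorter and 3.25% of all regions. With at least 10 counts in every library edgeR called 108 higher and 164 lower. At that floor the shares were level, at 18.8% of long, 18.8% of shorter and 18.7% of all regions. The median change of long regions was -0.06, against -0.16 for shorter ones, a difference of 0.10 that came to 0.03 with at least 10 counts in every library. By calls the order was the other way: 1.35% of long regions were called higher and 6.11% lower, against 1.92% and 4.63% of shorter regions of like abundance. Matched on abundance per codon, the difference of medians was 0.05 and the shorter share called was 1.70%.

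Per sample, density of long relative to shorter regions was -0.04 and -0.03 for WT, 0.08 and -0.01 for Het, and 0.09 and 0.07 for KO, with a pooled SD of 0.04. KO stood above WT, and Het 1 lay within the KO range. The median standard error of a density change was 0.34 for long and 0.51 for shorter regions. The counts called dropped when any of WT 1, WT 2, KO 1 or KO 2 was left out, and so did the share called among shorter and all regions.

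Calls of lower density went mostly with higher RNA. The 150 long regions with lower density in KO had a median RNA change of 0.85 and a median footprint change of -0.29. Of them 99 were called in RNA and 86 in footprints, and the RNA change was the larger of the 2 in 108. Regions of higher density showed the mirror image, with a median RNA change of -0.83 and a median footprint change of 0.09. Of these 33, 31 were called in RNA and 14 in footprints, and the RNA change was the larger in 31. A density change contains the RNA change with its sign turned, so errors in RNA enter both values.

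For density of long relative to shorter regions, the Het mean of 0.03 lay between the WT mean (-0.04) and the KO mean (0.08). The density test of Het against WT made few calls, which does not show that these genotypes were alike. The test called 1 long region, higher, or 0.041% against 0.189% of shorter regions and 0.055% of all regions, with 269 at an unadjusted p under 0.05. DESeq2 called 9, or 0.367% of long, 0.635% of shorter and 0.191% of all regions. With any sample left out, edgeR again called a smaller share of long than of shorter regions. In KO against Het, 135 were called, 6 higher and 129 lower, or 5.50% against 3.43% of shorter regions and 1.75% of all regions. Matched on abundance per codon, 0.96% of shorter regions were called. A floor of 10 counts per library gave 50 higher and 130 lower calls, or 12.4% against 10.5% of shorter regions and 11.4% of all regions. The lower regions had a median RNA change of 0.53 and a median footprint change of -0.40. Without KO 2, Het 2, KO 1 or Het 1 the calls fell, and so did the shares of shorter and all regions called.

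By the naming rule, density rose most in ENSMUST00000163190.8 of 1431 codons, where RNA and footprints moved apart. Its RNA level was 70.1 and 81.1 CPM for WT, 49.1 and 50.0 for Het, and 41.1 and 32.0 for KO. Its footprints were 28.0 and 25.1 CPM for WT, 31.7 and 34.1 for Het, and 52.3 and 54.7 for KO. In CPM, each genotype stood apart from the next in both assays, in opposite order. The RNA counts themselves were few and flat, at 27 and 27 for WT, 33 and 24 for Het, and 32 and 30 for KO, while library totals rose. Het against WT was not called in RNA (edgeR adjusted p = 0.209) or in footprints (adjusted p = 0.167). KO against Het was called in footprints but not in RNA (adjusted p = 0.427). Footprints rose by 0.98 ± 0.08 on the log2 scale (edgeR adjusted p = 1.45e-07), RNA changed by -1.10 ± 0.28 (adjusted p = 0.00383), and density rose by 2.04 ± 0.30 (adjusted p = 5.35e-06).

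ENSMUST00000215492.2 of 1761 codons had a like pattern at lower footprint levels. RNA was 85.6 and 87.1 CPM for WT, 56.5 and 58.4 for Het, and 48.8 and 36.3 for KO, on 28 to 38 counts per library. Footprints were 4.59 and 4.14 CPM for WT, 5.62 and 4.06 for Het, and 8.21 and 8.06 for KO, with Het overlapping WT. Its density rose by 1.90 ± 0.33 in KO against WT (edgeR adjusted p = 1.27e-04), with changes of -1.08 ± 0.27 in RNA (adjusted p = 0.00267) and 0.87 ± 0.18 in footprints (adjusted p = 0.00173).

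**Figure D5:**
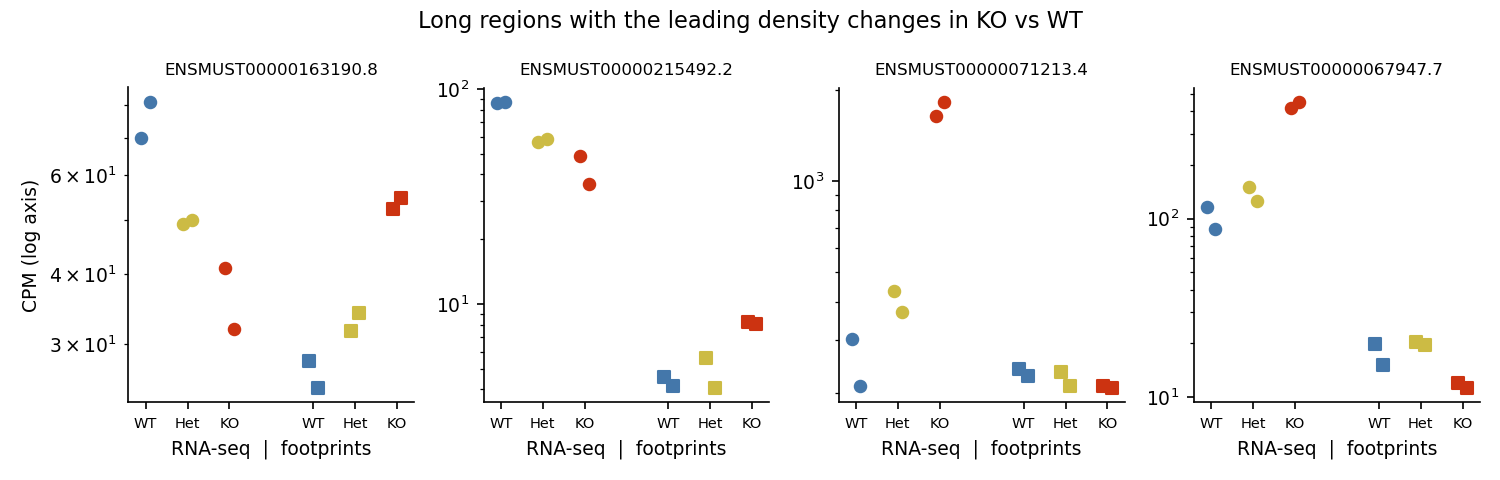
RNA (circles) and footprint (squares) levels in CPM on log axes for the 4 long regions with the leading density changes in KO against WT, by genotype, each point 1 library. In the 2 left panels RNA falls and footprints rise towards KO; in the 2 right panels RNA is far higher in KO while footprints are flat or lower.

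The deepest falls in density by that rule were those of ENSMUST00000071213.4, described above for its RNA, and ENSMUST00000067947.7 of 1345 codons. Density of ENSMUST00000071213.4 changed by -2.90 ± 0.17 (edgeR adjusted p = 6.01e-19), with higher RNA and level footprints. In ENSMUST00000067947.7 RNA was 117 and 87.1 CPM for WT, 150 and 125 for Het, and 421 and 453 for KO. Its footprints were 19.8 and 15.1 CPM for WT, 20.3 and 19.6 for Het, and 12.0 and 11.2 for KO. RNA rose by 2.04 ± 0.19 (adjusted p = 3.37e-13), footprints fell by 0.66 ± 0.12 (adjusted p = 4.89e-04), and density fell by 2.74 ± 0.22 (adjusted p = 1.58e-13). ENSMUST00000067947.7 lies 2 rows from ENSMUST00000234610.2 in the tables, with RNA and footprint counts of like size in every library, so the values of this pair may come from shared reads and are uncertain as separate results. None of these 3 regions was called in Het against WT in any readout: the edgeR adjusted p ranged from 0.0652, for the RNA of ENSMUST00000071213.4, to 0.945, for the density of ENSMUST00000234610.2.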

How the data were processed

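Each library had a table of raw counts per transcript row, deposited by the authors without a header. The second column, a whole number equal in all 12 tables, is not described in the labels and was used only to place rows in length classes. The submitters' processing notes name CASAVA 1.8, cutadapt 3.7, UMI-tools 1.1.2 and STAR 2.7.0a and the build mm39, with no role or order. The counting tool, the annotation, the use of strand, and whether RNA reads in untranslated regions were counted are not given in the sources used here. Reads shared by isoforms were counted on each of them, so rows are not independent, and rows of overlapping or near-identical genes are uncertain. The 2 IDs that the selection rule names were left out. No gene symbol was inferred from an ID, so the planned gene and cell type lists were not used.

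Of 278268 rows, 63239 had a count, and rows with the same counts in all 12 libraries were kept once. Each assay was fitted in 1 model over its 6 libraries in edgeR 4.0.16 under R 4.3.3, scaled by TMM and filtered by filterByExpr, by quasi-likelihood tests with 3 residual degrees of freedom, and Benjamini-Hochberg adjustment over all regions tested, 12354 for RNA-seq, 33219 for ribosome profiling and 30888 for density. Density was the genotype by assay interaction over all 12 libraries. All p-values are two-sided, and calls have an adjusted p under 0.05. Levels in CPM are counts per 1000000 counts over all regions, and 0.5 CPM was added before logs. Shorter regions were weighted to 5 bins of the long regions' abundance, as a description without a test. Scripts were tested on simulated data. DESeq2 1.42.0 and other settings were run as alternatives.

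For each readout in KO against WT, the named regions are the 2 largest changes in each direction among called long regions with a mean of at least 20 counts per library and no overlap between KO and WT. For density the 20 counts were required in both assays. A region that shared reads or a transcript group with one already named in that direction was passed over. Several named regions had further isoforms in their group. The long regions, lists and rules were chosen with earlier results of these data known.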

Additional observations from a re-analysis of the deposited data

How the results depend on the processing

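Over the 9 comparisons, 148 values recomputed under other settings stayed near the reported value and 38 moved. With a sample left out, 71 stayed and 37 moved. Counts of calls were said to move when they changed 1.5-fold, and differences of medians when they changed by more than 1 pooled SD within genotypes, whatever their sign. For the named regions, 90 changes recomputed under other settings and 72 with a sample left out kept their call, and 2 lost it with DESeq2 (ENSMUST00000167239.8 at 1.72 and ENSMUST00000228014.2 at -3.25). The cause of the moves was not tested, except that transcript groups hold fewer units and thinned libraries fewer counts.

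Below, counts of long regions called come in the order KO against WT, Het against WT, KO against Het. Percentages in brackets are the shares called of long and then of all regions tested. DESeq2 called 139 (6.41%, 4.95%), 8 (0.369%, 0.518%) and 42 (1.94%, 1.40%) in RNA. In footprints it called 460 (18.6%, 10.9%), 1 (0.0405%, 0.376%) and 342 (13.8%, 9.20%). In density it called 9 for Het against WT (0.367%, 0.191%). Transcript groups gave 207, 25 and 85 in RNA, 506, 8 and 481 in footprints, and 94 (KO against WT) and 55 (KO against Het) in density. Thinning every library to the smallest of its assay, in 1 seeded draw, gave 92 for KO against Het in RNA (4.99%, 5.05%). In footprints it gave 586 for KO against WT (24.1%, 16.8%) and 473 for KO against Het (19.4%, 13.8%). In density it gave 110 (4.49%, 1.85%), 2 (0.0817%, 0.0545%) and 54 (2.20%, 0.770%). For Het against WT, no count filter gave 24 in RNA (0.972%, 0.384%), 71 in footprints (2.87%, 2.22%) and 4 in density (0.162%, 0.0654%). At least 10 counts in every library gave 6 in density (0.415%, 0.824%), and relative log expression scaling gave 2 (0.0815%, 0.0939%). Fitting only the 2 genotypes compared gave 10 in footprints (0.405%, 0.548%).

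Differences of median log2 change, long minus shorter, moved as follows. In RNA, KO against WT was -0.0457 with no count filter, -0.129 with at least 10 counts in every library and -0.0407 for long regions with at least 1000 footprint counts, and Het against WT was -0.0208 with the last of these. In density, KO against WT was 0.0295 with at least 10 counts in every library. With regions matched on abundance per codon, Het against WT was -0.140 in RNA, and KO against WT was -0.0142 in footprints and 0.0494 in density. KO against Het was then 0.0128 in footprints, where the sign turned, and 0.0159 in density. Its sign turned in RNA as well, from -0.0257 to 0.00494, though this change was within 1 SD. Comparing only with shorter regions of at least 100 footprint counts, a setting chosen after seeing the data, moved none of the 9 differences beyond 1 SD. Adding 2 CPM in place of 0.5 left KO and WT apart in the levels by library.

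Leaving out each organoid sample in turn gave 190 to 437, 3 to 66 and 66 to 175 calls in RNA, 597 to 908, 8 to 29 and 468 to 938 in footprints, and 101 to 188, 0 to 2 and 43 to 144 in density. RNA KO against WT fell to 190 without WT 1 and 232 without WT 2, and RNA Het against WT to 3 without Het 1, 8 without WT 1 and 32 without WT 2. In each comparison and readout, where calls of long regions fell with a sample left out, the share of all regions called fell as well. The differences ranged from -0.0791 to -0.0286 for RNA Het against WT, from -0.0639 to -0.0251 and from -0.0386 to -0.00798 for footprints in Het against WT and KO against Het, and from 0.00864 to 0.0875 and from 0.0245 to 0.105 for density in the same 2 comparisons.

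Organoid numbers are shared by the 2 assays, and the labels do not say that a number marks a shared culture. Over regions with at least 300 RNA counts, deviations of the same number in the 2 assays had an r of 0.05 (WT), 0.14 (Het) and 0.01 (KO), so the pairing was not taken as shown. With the number as a replicate block, density calls were 191, 6 and 134.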
